A study of Mus musculus with 6 samples.

Results

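NF-κB transcription factors, the IκB-type proteins that hold them back and the deubiquitinase A20 were described in Ocy454 cells through 9 genes. These were the subunit genes Rela, Relb, Nfkb1 and Nfkb2, the cytoplasmic inhibitors Nfkbia and Nfkbie, the nuclear IκB proteins Bcl3 and Nfkbiz, and Tnfaip3, which encodes A20. They were taken by gene symbol from the 39179 genes with an RPKM value (reads divided by the length of the gene and the size of the library), and each symbol matched 1 gene. The 9 symbols were chosen with the RPKM of these same 6 libraries and the fold changes of all 3 comparisons already known, so they count as selected on those values, although no threshold was set on any of them. Their differences between conditions are therefore a description, and a p-value beside a member states how the fit across all genes placed it and lends it no independent support.

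Ocy454 is a mouse osteocytic cell line, used here as 1 subclone grown from a single cell. All cells were grown to confluency at 33 °C and kept at 37 °C for 14 days, with fresh medium given 24 h before collection. They then received vehicle (PBS with 25 mM HCl), 1 nM PTH 1-34 (parathyroid hormone) or 0.5 µM YKL-05-093 for 4 h, with 2 libraries per condition. YKL-05-093 is a compound that blocks the salt-inducible kinases, relatives of AMPK that phosphorylate CRTC proteins and class IIa HDACs. Per the study, it also acts on kinases outside this family in vitro. Some genes measured there still responded to it in cells deficient in SIK2 and SIK3, so a difference with YKL-05-093 need not run through these kinases. The labels name 1 vehicle for the experiment and do not say in what YKL-05-093 was dissolved. Per the study's supplement, DMSO was the solvent of the compounds for work in culture. The sources used here do not say whether vehicle and PTH cells also received DMSO. A part of the solvent in the differences with YKL-05-093 was not tested. The question put by the design is which genes PTH and the kinase inhibitor alter in the same cells, and here it is asked of the NF-κB genes. The methods speak of experimental duplicates without saying whether they came from cultures set up separately, so p-values measure the spread between these libraries, which may be technical.

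The libraries held between 17505798 and 27983585 reads. The vehicle libraries were less alike than those of the other conditions, with a median absolute log2 difference between the replicates of 0.333 over the genes tested, against 0.108 for PTH and 0.103 for YKL-05-093. Of 6 osteocyte markers, Sost, Mepe and Fgf23 had at most 4 reads in any library, at or near the floor of 3 reads, whereas Pdpn lay between 53.1 and 171 RPKM and Dmp1 between 0.376 and 1.15 RPKM. The summed level of the osteocyte list was 55.7 to 73.3 RPKM with vehicle, 165 to 176 with PTH and 98.4 to 99.1 with YKL-05-093, nearly all of it Pdpn. All 6 osteoblast markers were above 0.5 RPKM in every library, with summed levels of 710 to 815, 822 to 999 and 859 to 1126 RPKM in the same order of conditions, most of it Col1a1 and Ibsp. Sp7 and Runx2 of that list were lower with PTH. Sp7 had 46.0 and 45.5 RPKM with vehicle, 12.2 and 11.1 with PTH, and 22.4 and 29.6 with YKL-05-093. Runx2 had 19.5 and 13.0, 7.87 and 7.02, and 11.6 and 12.6 RPKM in the same order. Bglap, Alpl and Ibsp were higher with PTH than with vehicle, and Col1a1 overlapped. Bglap had 6.61 and 11.5, 27.1 and 25.3, and 11.9 and 11.4 RPKM in that order. Alpl had 61.7 and 67.3, 78.8 and 76.1, and 71.4 and 88.9 RPKM. For Ibsp the values were 292 and 314, 443 and 332, and 414 and 587 RPKM. Among 8 markers of blood cells, Cd68 and Cd14 were above 0.5 RPKM in every library and the other 6 were below it, Ptprc with at most 6 reads. That list summed to 5.97 to 6.47 RPKM with vehicle, 6.61 to 7.66 with PTH and 6.20 to 6.62 with YKL-05-093. The 4 endothelial markers summed to 0.724 to 1.14, 1.14 to 1.44 and 1.95 to 2.17 RPKM, with Cdh5 at 0 in all 6 libraries. The part of these lists in the results was not tested, and in bulk RNA fewer cells of a type cannot be told apart from less RNA per cell.

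As background, NF-κB is a set of dimers built from Rel-domain proteins. RelA and RelB carry activation domains, and the products of Nfkb1 and Nfkb2 are made as long precursors, p105 and p100, that are processed to p50 and p52. In resting cells IκBα (Nfkbia) and IκBε (Nfkbie) keep dimers in the cytoplasm until the IκB kinase marks them for destruction, and the freed dimers switch on genes that include Nfkbia, Nfkbie and Tnfaip3 themselves, which closes a negative feedback loop. Bcl-3 and IκBζ (Nfkbiz) resemble the inhibitors in sequence, but act in the nucleus as partners of p50 and p52 dimers. In bone, the pathway is best known downstream of RANKL in osteoclasts, where it is needed for their formation.

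All 9 genes were detected in every library, over a range from 0.0909 RPKM for Bcl3 in a vehicle library to 41.5 RPKM for Nfkbia in the same library. Per length, the vehicle levels ran in the order Nfkbia, Nfkb2, Rela, Nfkb1, Relb, Nfkbie, Tnfaip3, Nfkbiz and Bcl3, from a mean of 39.1 RPKM down to 0.118 RPKM, and no neighbours in that order had overlapping values in the vehicle libraries. With PTH, Rela stood above Nfkb2, but these neighbours overlapped, and Nfkbiz stood above Tnfaip3. With YKL-05-093, Rela stood first and Nfkbiz stood above both Nfkbie and Tnfaip3. The subunits and Nfkbia thus formed an abundant group, Nfkbie, Tnfaip3 and Nfkbiz a group of low level, and Bcl3 was rare. The order rests on the gene lengths behind the RPKM. With the merged exons of the GENCODE M21 annotation as length in place of those recovered from the deposited values, the mean vehicle level of Nfkb1 was 7.12 in place of 15.3 RPKM, which put it below Relb (9.27 RPKM). With these lengths Rela (23.8 RPKM) stood above Nfkb2 (21.8 RPKM) with vehicle already, and Tnfaip3 (3.79 RPKM) just above Nfkbie (3.69 RPKM). With YKL-05-093 they put Nfkbia (27.6 RPKM) above Rela (26.9 RPKM) and Tnfaip3 (1.77 RPKM) above Nfkbie (1.68 RPKM), while Nfkbiz stood above Tnfaip3 with either treatment under both lengths.

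**Figure D1:**
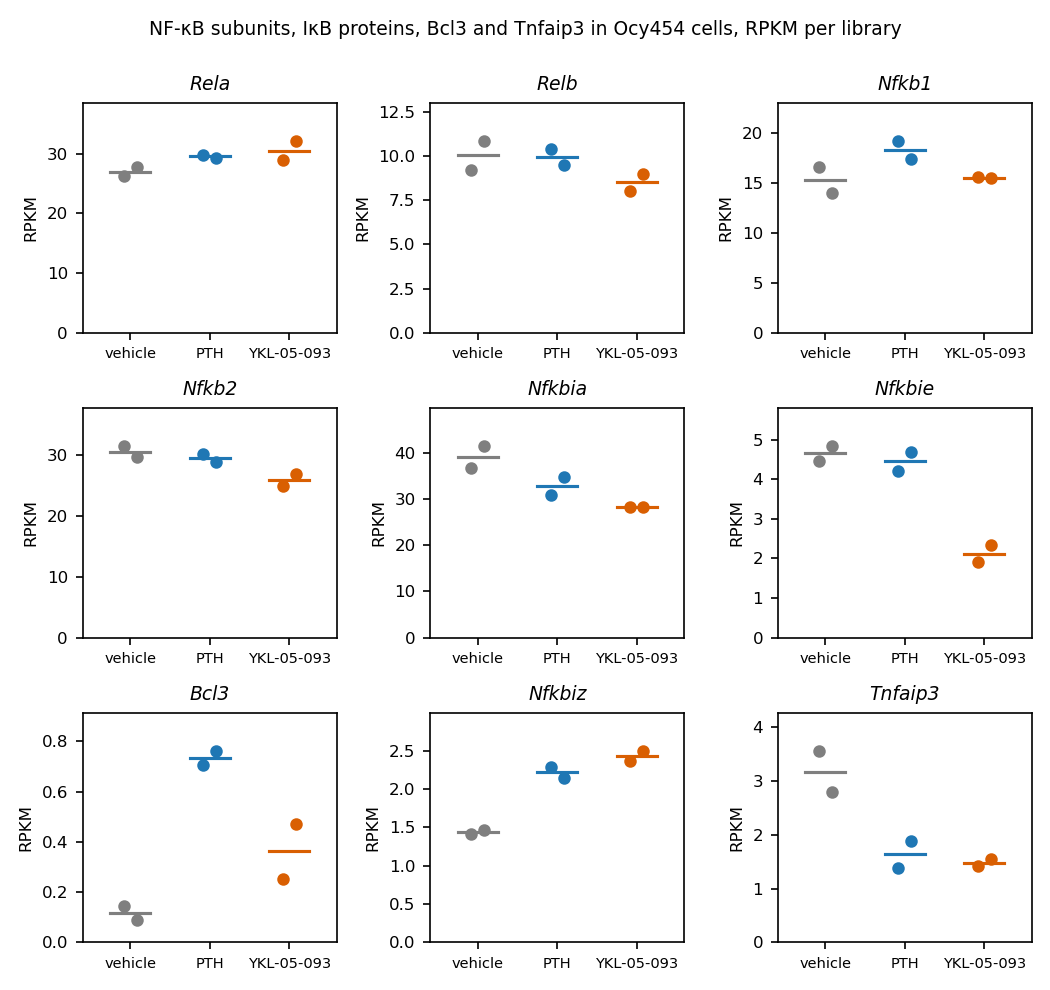
RPKM of the 9 members, 1 panel per gene with its own linear axis from 0, 1 point per library, coloured by condition, with a bar at the mean of each condition. The PTH points of Bcl3, at 0.706 and 0.762 RPKM, lie above the other 4 libraries, and the YKL-05-093 points of Nfkbie lie at 1.90 and 2.33 RPKM, below the rest.

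Genes were compared by limma on log2(RPKM + 0.1), and a gene was called when its Benjamini-Hochberg adjusted p, taken over all genes tested, was under 0.05 and it differed by more than 2-fold. All 9 members passed the filter of 0.5 RPKM in at least 2 libraries. Bcl3 passed only through the 2 PTH libraries, being under 0.5 RPKM in all 4 others, so a member that entered in this way had to be higher with PTH. For PTH against vehicle, 1 of the 9 was called, against 1.91% of the 14261 genes tested (1.09% higher and 0.813% lower). For YKL-05-093 against vehicle, limma called 0 of the 9, against 0.666% of 14255 genes (0.393% higher and 0.274% lower), and voom on the recovered reads called 0. For PTH against YKL-05-093, 1 of the 9 was called, against 1.21% of 14255 genes (0.737% higher with PTH and 0.47% lower). At an unadjusted p under 0.05 the members numbered 3, 5 and 6 in these comparisons, against 13.3%, 8.66% and 22.3% of all genes tested. At an adjusted p under 0.05 with no limit on the fold they numbered 1, 0 and 2, against 2.19%, 0.666% and 10%. The 2 groups of libraries did not overlap for 6 members (4 higher, 2 lower) in PTH against vehicle, for 8 (3 higher, 5 lower) in YKL-05-093 against vehicle and for 7 (6 higher, 1 lower) in PTH against YKL-05-093. Over all genes tested these shares were 43.1% (19.1% higher, 24% lower), 37.8% (15.7% higher, 22.1% lower) and 50% (26.3% higher, 23.7% lower). Both comparisons with vehicle share the vehicle libraries, and no link between them was computed. The median log2 fold change of the members was -0.01 for PTH and -0.23 for YKL-05-093 against vehicle, beside -0.03 and -0.04 over all genes tested. It was 0.22 for PTH against YKL-05-093, beside 0.01 over all genes. Nothing is read from these counts and medians, since the members were chosen with these contrasts known.

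**Figure D2:**
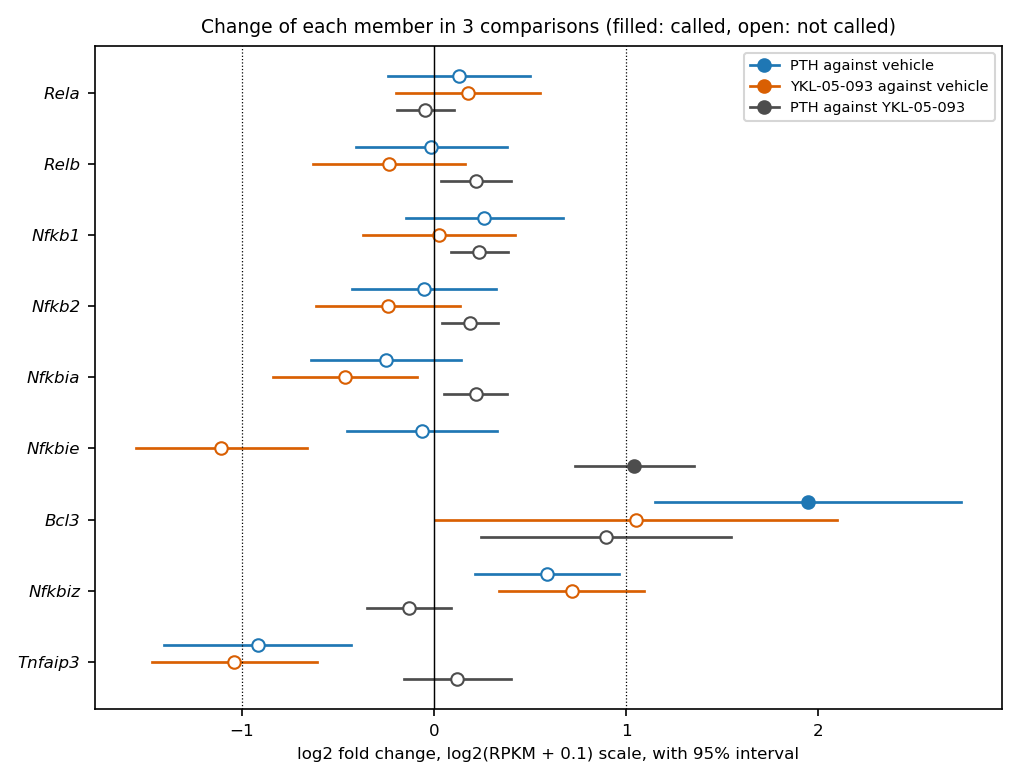
Log2 fold change of each member on the log2(RPKM + 0.1) scale in the 3 comparisons, with the 95% confidence interval of limma as a bar and a filled point where the gene was called. The filled points are Bcl3 for PTH against vehicle, at 1.95, and Nfkbie for PTH against YKL-05-093, at 1.04.

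The subunit genes differed little between conditions. Rela, the gene of the main activating subunit (chr19:5637483-5648130, plus strand, GRCm38), had 26.2 and 27.8 RPKM with vehicle, 29.8 and 29.4 with PTH, and 29.0 and 32.1 with YKL-05-093. The vehicle libraries were the lowest, by 0.13 (SE 0.16) on the log2 scale against PTH and 0.18 (SE 0.16) against YKL-05-093, with limma adjusted p = 0.798 and 0.853. Nfkb1, which encodes p105 and p50 (chr3:135584655-135691547, minus strand), had 16.6 and 14.0 RPKM with vehicle, 19.2 and 17.4 with PTH, and 15.6 and 15.5 with YKL-05-093. Its PTH libraries lay above all others, with a log2 difference of 0.26 (SE 0.17, limma adjusted p = 0.623) to vehicle. Against YKL-05-093 the difference was 0.24 (SE 0.07, 95% interval 0.09 to 0.38), with limma adjusted p = 0.0413, which is a size under the 2-fold limit, and 10% of the 14255 genes tested reached that p at any fold.

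Nfkb2 and Relb, whose products p52 and RelB pair in the non-canonical arm of the pathway, had their lowest values with YKL-05-093. Nfkb2 (chr19:46304320-46312385, plus strand) had 31.5 and 29.7 RPKM with vehicle, 30.1 and 28.9 with PTH, and 24.9 and 27.0 with YKL-05-093, the vehicle and PTH values overlapping. Relb (chr7:19606217-19629438, minus strand) had 9.25 and 10.9 RPKM with vehicle, 10.4 and 9.48 with PTH, and 8.05 and 8.99 with YKL-05-093, again with overlap of vehicle and PTH. Neither passed the test in any comparison. For YKL-05-093 against vehicle the log2 differences were -0.24 (SE 0.16) for Nfkb2 and -0.23 (SE 0.17) for Relb, with limma adjusted p = 0.798 and 0.815. For PTH against YKL-05-093 they were 0.19 (SE 0.07) and 0.22 (SE 0.09), with limma adjusted p = 0.109 and 0.134. Exons of Psd and AC114539.1 on the opposite strand overlap 830 bases of Nfkb2, and whether the counting used strand is not stated in the sources used here.

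The cytoplasmic inhibitors differed from one another in level and in the size of their differences. Nfkbia (chr12:55489410-55492647, minus strand) had 36.7 and 41.5 RPKM with vehicle, 31.0 and 34.8 with PTH, and 28.2 and 28.3 with YKL-05-093, so that the vehicle libraries were highest and those of YKL-05-093 lowest, with no overlap. The log2 differences to vehicle were -0.25 (SE 0.17) for PTH and -0.46 (SE 0.16) for YKL-05-093, with limma adjusted p = 0.624 and 0.427. Nfkbie (chr17:45555703-45563169, plus strand) had 4.47 and 4.84 RPKM with vehicle and 4.21 and 4.69 with PTH, which overlapped, and 1.90 and 2.33 with YKL-05-093. These came from 93 and 117 reads with YKL-05-093 and from 189 to 327 reads in the other libraries.

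Nfkbie was the member called between the treatments. It was higher with PTH than with YKL-05-093 by 1.04 on the log2 scale (SE 0.15, 95% interval 0.73 to 1.35, limma adjusted p = 0.000127), with mean RPKM of 4.45 ± 0.335 (SD, n = 2) against 2.12 ± 0.309, a ratio of 2.10. Against vehicle (4.65 ± 0.260 RPKM, SD, n = 2) the YKL-05-093 libraries differed by -1.11 (SE 0.19, 95% interval -1.55 to -0.66), with limma adjusted p = 0.0686, which missed the threshold. The PTH libraries differed from vehicle by -0.06 (95% interval -0.45 to 0.33). The call between the treatments lies close to the 2-fold limit and was lost when PTH replicate 1 (adjusted p = 0.193) or PTH replicate 2 (0.234) was left out, and without YKL replicate 1, where the difference was 0.90. It was also lost with a pseudocount of 1 RPKM (difference 0.81), with no filter on low values (adjusted p = 0.0707) and with 1 prior variance without trend (0.0871). The difference between YKL-05-093 and vehicle was called when all 6 libraries shared 1 fit (limma adjusted p = 0.0145). It also passed the threshold without VEH replicate 2, where the spread comes from the YKL-05-093 pair alone. With 1 library left out, this difference ran from -1.25 to -0.96.

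Since Nfkbia, Nfkbie and Tnfaip3 are textbook targets of NF-κB, and Bcl3 was the member called with PTH, the bases just before their start sites are shown. They were read from RefSeq promoters of GRCm38.p6, which held 6 of the 9 members and not Nfkb1, Relb or Nfkbiz. Exon bases are left out of the stretches printed, while the search ran over the full 250 bases before each start. Capitals mark matches to the κB consensus, the 10-base site of NF-κB dimers, searched on both strands, where matches may overlap.
Bcl3, chr7:19822771-19823005, minus strand: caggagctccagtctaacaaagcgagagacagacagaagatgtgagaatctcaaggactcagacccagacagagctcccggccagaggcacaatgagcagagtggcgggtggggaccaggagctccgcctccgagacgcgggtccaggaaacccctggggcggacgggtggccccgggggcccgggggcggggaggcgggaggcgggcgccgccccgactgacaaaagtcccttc
Nfkbia, chr12:55492648-55492897, minus strand: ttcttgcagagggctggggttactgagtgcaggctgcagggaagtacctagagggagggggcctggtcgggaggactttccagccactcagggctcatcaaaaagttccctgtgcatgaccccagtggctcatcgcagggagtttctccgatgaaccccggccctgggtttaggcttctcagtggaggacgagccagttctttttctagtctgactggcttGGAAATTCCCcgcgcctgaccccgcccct
Nfkbie, chr17:45555450-45555699, plus strand: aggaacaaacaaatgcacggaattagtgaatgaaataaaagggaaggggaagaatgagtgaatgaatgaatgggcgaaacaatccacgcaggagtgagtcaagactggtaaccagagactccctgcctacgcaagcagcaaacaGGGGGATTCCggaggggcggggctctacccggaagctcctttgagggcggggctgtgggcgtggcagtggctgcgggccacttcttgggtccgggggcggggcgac
Tnfaip3, chr10:19015411-19015547, minus strand: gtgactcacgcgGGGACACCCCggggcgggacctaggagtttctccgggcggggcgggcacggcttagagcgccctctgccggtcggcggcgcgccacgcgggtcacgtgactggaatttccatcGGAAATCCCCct
Counted back from the start site, the Nfkbia match lay at bases -29 to -20, that of Nfkbie at -106 to -97, and those of Tnfaip3 at -125 to -116 and -12 to -3. The Bcl3 stretch held no match. Of the other promoters read, all 3 of Nfkb2 held at least 1 match, and those of Rela and the second of Tnfaip3 held none. The κB matches of Nfkb2 all lay in bases annotated as exon. Among 32851 RefSeq promoters, 7.25% held the κB consensus in the 250 bases before the start. TGACG, the core of the cAMP response element, was in none of the 4 stretches shown. It was in 17.8% of all promoters over the full 250 bases, which are longer than the stretches of Bcl3 and Tnfaip3, and the full element TGACGTCA was in 1.55%. The first promoter of Tnfaip3 held TGACG at -168 to -164, outside the stretch printed. Nfkb2 held it at -58 to -54 and -45 to -41 in its first promoter, in exon bases, and at -40 to -36 in its second. A match is a description of letters and was not tested as a site.

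Bcl3 (chr7:19808462-19822770, minus strand) was the only member called higher with PTH than with vehicle. It had 0.145 and 0.0909 RPKM with vehicle, 0.706 and 0.762 with PTH, and 0.251 and 0.473 with YKL-05-093, from 7 and 7, 42 and 40, and 14 and 27 reads. The 3 conditions did not overlap, with PTH highest and vehicle lowest, and the YKL-05-093 libraries were the least alike. The means were 0.118 ± 0.0385, 0.734 ± 0.0394 and 0.362 ± 0.157 RPKM (SD, n = 2 each), so the ratio to vehicle was 6.22 for PTH and 3.06 for YKL-05-093. On the log2(RPKM + 0.1) scale, which understates the change of a gene this low, the difference to vehicle was 1.95 for PTH (SE 0.34, 95% interval 1.15 to 2.74, limma adjusted p = 0.0341). For YKL-05-093 it was 1.05 (SE 0.44, 95% interval 0.00 to 2.10, limma adjusted p = 0.573), and PTH exceeded YKL-05-093 by 0.90 (SE 0.31, 95% interval 0.25 to 1.54, limma adjusted p = 0.0808). The PTH call was lost without PTH replicate 1 (adjusted p = 0.375) or PTH replicate 2 (0.501), with a pseudocount of 1 RPKM (log2 difference 0.63, adjusted p = 0.154), with no filter on low values (0.102) and with the prior variance trended on the mean value (0.209). Exons of Gm16175 on the opposite strand overlap 161 bases of Bcl3. Relb lies 179 kb from Bcl3 on the same chromosome, with 10 protein-coding genes between them, and its vehicle and PTH values overlapped.

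Nfkbiz, the gene of the other nuclear IκB protein (chr16:55811375-55838899, minus strand), had 1.42 and 1.47 RPKM with vehicle, 2.29 and 2.14 with PTH, and 2.37 and 2.50 with YKL-05-093. Both treatments lay above vehicle with no overlap, and the replicates were close. The means were 1.44 ± 0.0348, 2.22 ± 0.103 and 2.43 ± 0.0907 RPKM (SD, n = 2 each), ratios to vehicle of 1.54 and 1.69. The log2 differences of 0.59 (SE 0.16) for PTH and 0.72 (SE 0.16) for YKL-05-093 did not pass the test, with limma adjusted p = 0.151 and 0.153. Between the treatments the log2 difference was -0.13, with a 95% interval of -0.35 to 0.09.

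Tnfaip3, whose product A20 edits ubiquitin chains and shuts off signalling upstream of the IκB kinase (chr10:19000910-19015657, minus strand), had 3.56 and 2.79 RPKM with vehicle, 1.39 and 1.89 with PTH, and 1.42 and 1.55 with YKL-05-093, from 248 to 674 reads. The vehicle libraries lay above all 4 treated ones, and the YKL-05-093 values fell within the range of the PTH values. The means were 3.17 ± 0.544, 1.64 ± 0.354 and 1.48 ± 0.0963 RPKM (SD, n = 2 each), ratios to vehicle of 0.516 and 0.468. The log2 difference to vehicle was -0.92 for PTH (SE 0.21, 95% interval -1.41 to -0.43, limma adjusted p = 0.0854) and -1.04 for YKL-05-093 (SE 0.18, 95% interval -1.47 to -0.61, limma adjusted p = 0.0742), so neither was called. Without VEH replicate 2 both passed the threshold, but that fit takes its spread from the treated pair alone. Over all genes the treated pairs were more alike than the vehicle libraries. With 1 library left out, the log2 difference ran from -1.13 to -0.71 for PTH and from -1.21 to -0.87 for YKL-05-093. The YKL-05-093 difference was also called when all 6 libraries shared 1 fit (limma adjusted p = 0.0322). PTH and YKL-05-093 differed by 0.12 (95% interval -0.16 to 0.40), an interval that does not show equal levels.

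**Figure D3:**
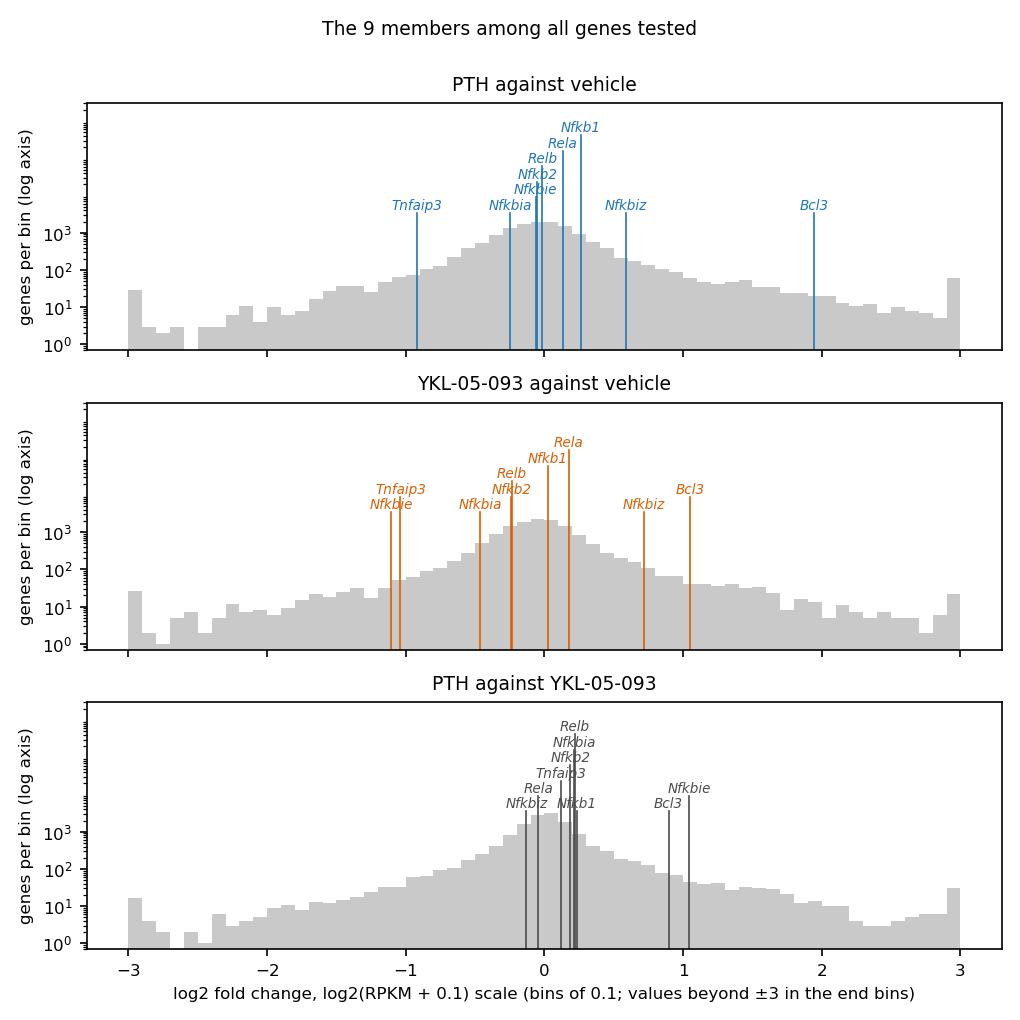
Histograms of the log2 fold change of all genes tested in each comparison (gray, log axis for the number of genes per bin), with a vertical line at the value of each member and values beyond 3 in either direction put in the end bins. Bcl3 at 1.95 stands far right of the other members for PTH against vehicle, and Nfkbie at -1.11 and Tnfaip3 at -1.04 stand left for YKL-05-093.

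The pattern over the 6 libraries, taken as the log2(RPKM + 0.1) change from the vehicle mean, was compared with that of every tested gene whose reads averaged 50 or more. The genes closest to Bcl3 were Prex1, with a mean absolute log2 difference of 0.163 per library, Gja1 (0.185), which encodes the gap junction protein connexin 43, and Slc37a2 (0.187), among 11882 genes. Gja1 had 16.3 and 13.9 RPKM with vehicle, 51.3 and 47.1 with PTH, and 30.5 and 35.7 with YKL-05-093, in the same order of conditions as Bcl3. Bcl3 itself had only 7 to 42 reads per library. The added 0.1 RPKM shrinks its change more than that of Gja1, so the closeness holds on this scale only. Closest to Tnfaip3 were Ptx3 (0.0887), which encodes a secreted pentraxin, Zfp36l2 (0.114), which encodes a protein that speeds the decay of AU-rich mRNAs, and Synj2 (0.118), among 11881 genes. Ptx3 had 14.1 and 12.1 RPKM with vehicle, 7.20 and 8.37 with PTH, and 6.15 and 6.77 with YKL-05-093.

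The rest of the pathway was described through 95 genes in 6 lists, of which 69 were tested. Among them 4 rose and 0 fell with PTH, 4 rose and 1 fell with YKL-05-093, and 4 were higher and 0 lower with PTH than with YKL-05-093, beside 1.91%, 0.666% and 1.21% of all genes called. The lists were written with earlier results of these data known. With 1 PTH library left out, no gene of the whole table was called by limma between the treatments (2132 and 2021 at an unadjusted p under 0.05, and 181 called by voom with all libraries), so every call between PTH and YKL-05-093 below rests on both PTH libraries. The PTH calls of Il1rl1 and Plau were also lost without either PTH library. The YKL-05-093 calls of Cxcl1, Plau, Csf1 and Tnfsf11 were lost without VEH replicate 1 or YKL replicate 1, those of Plau and Csf1 also without YKL replicate 2, and that of Il1rl1 without YKL replicate 1.

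No gene of the signalling core was called by limma. The shares called over all genes tested were 1.91%, 0.666% and 1.21%, in the order of comparisons given below. At such shares lists this short are likely to hold few calls or none, so nothing is read from their absence. For the 10 IκB kinases and upstream kinases, all tested, limma and voom called 0 in each comparison. By limma 0, 1 and 2 of them had an unadjusted p under 0.05 for PTH against vehicle, YKL-05-093 against vehicle and PTH against YKL-05-093. Over all genes tested that share was 13.3%, 8.66% and 22.3%, which also stands beside the counts for the lists below in this paragraph. Map3k14, named after its values were seen, had 4.13 and 3.43 RPKM with vehicle, 4.06 and 3.90 with PTH, and 2.83 and 2.61 with YKL-05-093. It was 0.53 (SE 0.10, limma adjusted p = 0.00142) higher with PTH than with YKL-05-093 on the log2 scale, under the 2-fold limit. At any fold, 10% of all genes tested had an adjusted p under 0.05 there. By the mean over all 6 libraries the highest kinase was Tbk1, related to the IκB kinases, at 18.0 to 24.1 RPKM. Tab1 (19.5 and 17.9 RPKM) was at about the level of Tbk1 with PTH. Of Rel, Nfkbib and Nfkbid, the rest of the Rel and IκB families, 2 were tested, and limma and voom called 0 in each comparison, with 0 at an unadjusted p under 0.05. Nfkbib, the gene of IκBβ, had 4.81 to 6.15 RPKM, and Nfkbid had at most 7 reads. Among 15 other negative regulators, 14 of them tested, limma called 0 in each comparison, with 1 gene at an unadjusted p under 0.05 in each. By voom, 1 was called for PTH against vehicle and 0 in the other comparisons. It was Irak3, a kinase-dead brake on IL-1 receptor and Toll-like receptor signalling, named after its values were seen, with 2.15 and 1.80 RPKM with vehicle, 4.08 and 3.84 with PTH, and 3.22 and 3.31 with YKL-05-093. By limma its log2 difference to vehicle was 0.97 with PTH (adjusted p = 0.0332), just under the 2-fold limit. By the mean over all 6 libraries the highest of this list was Otulin, which cuts linear ubiquitin chains, at 24.8 to 30.3 RPKM.

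Ligands that drive the pathway were mostly at or near the floor of 3 reads. Tnf had at most 2 reads in any library, Il1a at most 4, Il1b and Lta at most 1 and Ltb at most 6, and Tnfsf14 and Cd40lg had 0 reads in every library. Of 11 ligands 2 were tested, and Tnfsf11, the gene of RANKL, was called in each comparison. The gene of the RANKL receptor, Tnfrsf11a, named after its values were seen, had at most 1 read in any library. Tnfsf11 had 0.358 and 0.272 RPKM with vehicle, 12.6 and 10.6 with PTH, and 3.09 and 2.57 with YKL-05-093. It rose by 4.82 (SE 0.21) on the log2 scale with PTH and by 2.82 (SE 0.26) with YKL-05-093, and was 2.00 (SE 0.12) higher with PTH than with YKL-05-093, with limma adjusted p = 0.000463, 0.00941 and 2.58e-08. Both vehicle values were under the filter of 0.5 RPKM, which Tnfsf11 passed only through the treated libraries. A gene that entered in this way had to be higher than vehicle. Over the settings tried, the difference to vehicle ran from 3.26 to 5.22 with PTH and from 1.54 to 3.20 with YKL-05-093.

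Of 22 receptors and adaptors, 20 were tested and Il1rl1, the gene of the IL-33 receptor ST2, rose with each treatment. It had 3.84 and 4.72 RPKM with vehicle, 16.0 and 15.2 with PTH, and 16.2 and 16.8 with YKL-05-093. The log2 differences to vehicle were 1.85 (SE 0.17, limma adjusted p = 0.00342) and 1.93 (SE 0.17, limma adjusted p = 0.00883), and the treatments differed by -0.08 (SE 0.07, limma adjusted p = 0.559). By the mean over all 6 libraries the highest receptor was Tnfrsf12a, the TWEAK receptor that feeds the non-canonical arm, with 59.3 and 104 RPKM with vehicle, 55.6 and 51.2 with PTH, and 31.0 and 28.8 with YKL-05-093. Ltbr, the lymphotoxin beta receptor, stood above it with YKL-05-093, at 38.5 and 39.3 RPKM. The YKL-05-093 values of Tnfrsf12a lay below its others, at -1.39 (SE 0.27, limma adjusted p = 0.0988) to vehicle. No receptor or adaptor was called between the treatments by limma or voom. By limma, 9 of the 20 tested had an unadjusted p under 0.05 there, beside 22.3% of all genes tested. Against vehicle these were 3 with PTH and 6 with YKL-05-093, beside 13.3% and 8.66%.

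Among 34 known target genes of NF-κB, 21 were tested. With PTH 2 rose and 0 fell, with YKL-05-093 2 rose and 1 fell, and 3 were higher and 0 lower with PTH than with YKL-05-093. Over all genes tested the shares called were 1.09% higher and 0.813% lower, 0.393% and 0.274%, and 0.737% and 0.47%, in the same order. Their median log2 fold change was 0.29 with PTH and -0.23 with YKL-05-093, beside -0.03 and -0.04 over all genes, and 0.32 between the treatments, beside 0.01. Cxcl1, a neutrophil chemokine, had 5.72 and 8.47 RPKM with vehicle, 46.8 and 46.7 with PTH, and 27.0 and 24.1 with YKL-05-093. It rose by 2.73 (SE 0.21, limma adjusted p = 0.00168) and 1.86 (SE 0.22, limma adjusted p = 0.0243) on the log2 scale. Plau, the gene of urokinase, had 16.5 and 17.1 RPKM with vehicle, 38.1 and 38.4 with PTH, and 42.4 and 38.1 with YKL-05-093, and rose by 1.18 and 1.26 (limma adjusted p = 0.012 and 0.0279).

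The targets that limma called between the treatments were Csf1, Ccl2 and Ccl7, and voom called these and Lif. Lif, a cytokine of the IL-6 family named after its values were seen, was 0.89 (SE 0.21, limma adjusted p = 0.00974) higher with PTH on the log2 scale, under the 2-fold limit. Csf1, the growth factor of the macrophage and osteoclast lineage, had 20.3 and 17.9 RPKM with vehicle, 17.3 and 16.9 with PTH, and 6.65 and 7.24 with YKL-05-093. It fell by 1.44 (SE 0.16, limma adjusted p = 0.02) on the log2 scale with YKL-05-093 and was 1.29 (SE 0.07, limma adjusted p = 8.60e-09) higher with PTH than with YKL-05-093, while PTH and vehicle differed by -0.15 (SE 0.16). Ccl2, a monocyte chemokine, had 22.8 and 40.6 RPKM with vehicle, 46.9 and 49.5 with PTH, and 12.5 and 10.99 with YKL-05-093. The neighbouring chemokine gene Ccl7 had 17.0 and 31.4, 34.7 and 32.0, and 12.4 and 8.94 RPKM in the same order. Both were higher with PTH than with YKL-05-093, by 2.03 (SE 0.09) and 1.65 (SE 0.13) on the log2 scale. In the main fits neither was called against the vehicle libraries, which differed widely from one another for these genes. The differences to vehicle were -1.37 (SE 0.27) and -1.13 (SE 0.31) for YKL-05-093, and 0.66 (SE 0.27) and 0.52 (SE 0.28) for PTH. With the replicate number as a block, both were called lower with YKL-05-093 than with vehicle. Ccl2 was also called lower when all 6 libraries shared 1 fit. By the mean over all 6 libraries the highest target was Ier3, an immediate early gene, at 24.2 to 43.9 RPKM, which was not called and stood first in no single condition.

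**Figure D4:**
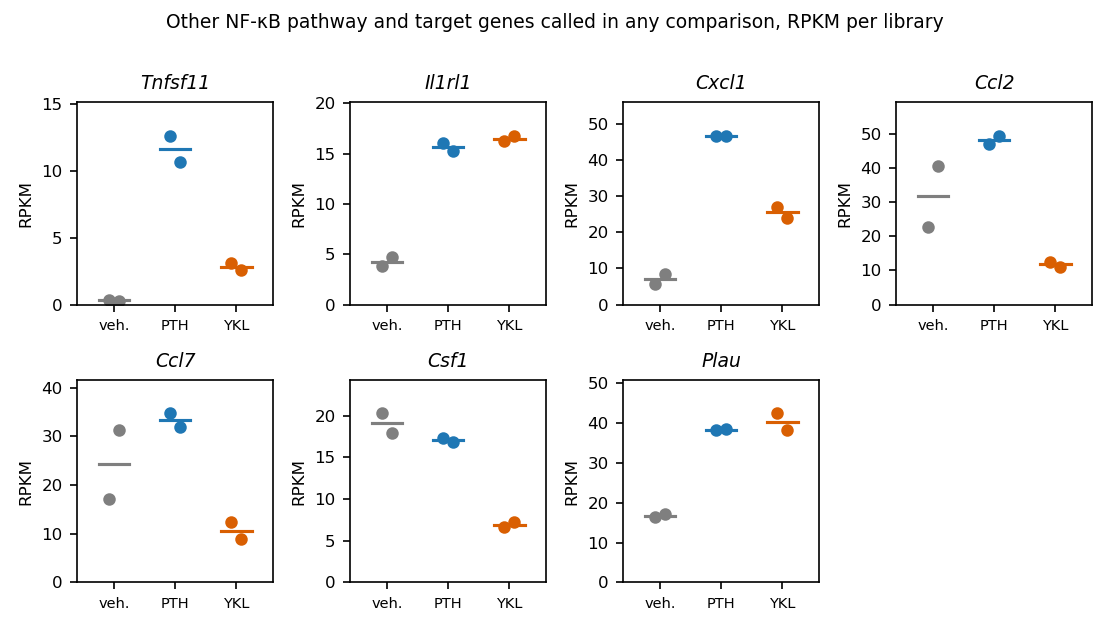
RPKM of the pathway genes outside the 9 members that were called in at least 1 comparison, 1 panel per gene with a linear axis from 0, 1 point per library, coloured by condition, with a bar at each mean. Tnfsf11, Il1rl1, Cxcl1 and Plau have both treatments above vehicle, and Csf1, Ccl2 and Ccl7 have YKL-05-093 below PTH.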

How the data were processed

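RNA of Ocy454 cells was sequenced in 6 libraries, 2 per condition. Per the submitters' processing notes, CASAVA 1.7, STAR and the mm10 build were used, and the study's methods name counting by HTSeq on an Ensembl annotation after ribosomal RNA depletion and a directional library kit. The authors deposited RPKM values on a linear scale for 39179 genes, with no scaling factor between libraries. How gene length was taken is not stated in the sources used here. RPKM corrects for length and depth only, so a shift in a few abundant genes moves all others.

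The study's own test was a count test. Since RPKM is no count, limma 3.58.1 (R 4.3.3) was applied to log2(RPKM + 0.1). A gene entered if 2 or more of the 6 libraries reached 0.5 RPKM, which 14264 did, and genes at 0 in all 4 libraries of a comparison were left out, which leaves 14261 for PTH and 14255 for each comparison with YKL-05-093. Each fit held its own 4 libraries, with the prior variance trended on the mean log2 of recovered reads plus 0.5, and Benjamini-Hochberg adjustment ran over all genes tested. An exact permutation test of 2 libraries against 2 cannot give p under 0.333. Whole reads, gene lengths and library totals were recovered from the steps between RPKM values for all 26214 genes above 0, and add up to 99.7% of the totals. They served for depth, the trend and voom. For 3 reads over 2000 bases the RPKM is 0.0536 to 0.0857, and a level at or under it was not detectable. Means are given with SD. Scripts used Python 3.11.15 and were tested on simulated data.

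The 9 members, the pathway lists, the markers and the test settings were chosen with earlier results of these data known. All members were named, and from each list the genes called in any comparison and the gene with the highest mean RPKM over the 6 libraries. For Bcl3 and Tnfaip3, the 3 genes of closest pattern were named. Positions come from GENCODE M21 on GRCm38 and promoters from RefSeq.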

Additional observations from a re-analysis of the deposited data

How the results depend on the processing

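With 2 libraries per condition and few reads on Bcl3, the counts of calls moved with the settings, while the direction of most members did not. Of the member values under the alternatives, 352 kept their direction and their side of the threshold, 7 passed it newly, 11 no longer passed it and 8 reversed. The Bcl3 call for PTH was made under 9 of the 14 alternatives that keep the limit on the fold, with adjusted p from 0.000395 to 0.501, and the Nfkbie call between the treatments under 8 of 14. The cause of the changes below was not tested. A median-ratio or TMM scaling moved the median of all genes by less than 0.1 on the log2 scale. The gene lengths of GENCODE M21 were tried after the data had been seen.

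For PTH against vehicle, 1 member, 4 other pathway genes and 272 genes in all were called. A pseudocount of 1 RPKM left 0 members. With no filter on low values these were 0, 0 and 0 genes (3, 14 and 2341 at an unadjusted p under 0.05, and voom with the filter called 1, 5 and 269). A prior variance trended on the mean value gave 0 members and 160 genes, and 1 prior variance without trend gave 130 genes. With 1 library left out the ranges were 0 to 2 members, 2 to 6 pathway genes and 14 to 671 genes. Here and below, the lone library of a condition is assumed to vary like the other condition.

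For YKL-05-093 against vehicle, 0 members, 5 other pathway genes and 95 genes in all were called. A pseudocount of 1 RPKM gave 55 genes, a filter of 0.1 RPKM 57, and no filter 0 pathway genes and 0 genes (17 and 1735 at an unadjusted p under 0.05, and voom with the filter called 5 and 100). A prior variance trended on the mean value gave 0 pathway genes and 6 genes, and no trend gave 1 and 29. With 1 fit of all 6 libraries 2 members and 175 genes were called. With 1 library left out the ranges were 0 to 2 members, 0 to 6 pathway genes and 11 to 320 genes.

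For PTH against YKL-05-093, 1 member, 4 other pathway genes and 172 genes in all were called. A pseudocount of 1 RPKM gave 0 members and 98 genes, no filter gave 0 members, and no trend gave 0 members, 2 pathway genes and 51 genes. With 1 fit of all 6 libraries 102 genes were called, and with no limit on the fold 2 members, 15 pathway genes and 1427 genes. With 1 library left out the ranges were 0 to 1 member, 0 to 5 pathway genes and 0 to 155 genes.

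The sources used here do not say whether same-numbered libraries were set up together. Deviations from the condition means of same-numbered libraries correlated at -0.0336 (vehicle and PTH), -0.0540 (vehicle and YKL-05-093) and -0.0494 (PTH and YKL-05-093) over 14264 genes. Such values over all genes cannot decide it, since a shared set-up could act on some genes only. With the replicate number as a block, 441 genes were called for PTH against vehicle with 1 member, 215 for YKL-05-093 against vehicle with 2 members (Nfkbie, adjusted p = 0.000981, and Tnfaip3, 0.00202) and 9 other pathway genes, and 196 for PTH against YKL-05-093 with 1 member.

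Values near 0 changed sign in some settings. For PTH against vehicle, median-ratio scaling gave log2 differences of 0.0254 for Otulin and 0.0172 for Relb, and voom 0.0191 and 0.0107. With 1 library left out, Otulin ran from -0.15 to 0.14, Relb from -0.13 to 0.10, Nfkbib from -0.22 to 0.13 and Nfkbie from -0.139 to 0.0116. For YKL-05-093 against vehicle, Tbk1 ran from -0.298 to 0.0640, Otulin from -0.0795 to 0.211, Nfkbib from -0.279 to 0.0695 and Nfkb1 from -0.10 to 0.15. For PTH against YKL-05-093, Tnfaip3 ran from -0.0887 to 0.329, Plau from -0.147 to 0.0053 and Rela from -0.119 to 0.0299. None of these values was called.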
